A study of Mus musculus with 6 samples.

Results

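The genes described here encode 10 enzymes of triacylglycerol synthesis, the 3 lipins (Lpin1, Lpin2 and Lpin3), the glycerol-phosphate acyltransferases Gpam and Gpat4, the acylglycerol-phosphate acyltransferases Agpat2 and Agpat3, the monoacylglycerol acyltransferase Mogat1 and the diacylglycerol acyltransferases Dgat1 and Dgat2. Every array probe whose RefSeq accession belongs to one of these genes was taken, which gave 21 of the 56605 probes on the array. All 10 genes had at least 1 probe, and 19 of the 21 probes were well above background on all 6 arrays.

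Liver RNA came from 3 male mice fed regular chow (control) and 3 male mice fed chow made of 75% regular food and 25% soy bean powder (soy). The mice were 12 weeks old, ate freely under a light-dark cycle for 28 days, and each liver was hybridized to 1 single-colour Agilent mouse gene expression array. The strain of the mice is not given in the sources used here. Soy took the place of part of the regular chow, so the nutrients of the diets were not varied singly. The hour of liver collection is not given in the sources used here. Values are background-corrected, quantile-normalized median signals on the log2 scale, and a probe passed when limma gave an adjusted p under 0.05 over all probes and a fold change above 1.5 or under 0.66. The hepatocyte genes Alb, Apoa1, Ttr, Trf and Fgb were well above background on every array. The number of non-control spots well above background was lower in soy (between 31308 and 32498 per array against 36366 to 38163 in control, of 59305), and its part in the results was not tested.

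Triacylglycerol is built on glycerol phosphate. A glycerol-phosphate acyltransferase adds the first fatty acid, an acylglycerol-phosphate acyltransferase adds the next and yields phosphatidic acid, a lipin removes the phosphate to give diacylglycerol, and a diacylglycerol acyltransferase adds the last fatty acid. Monoacylglycerol acyltransferases reach diacylglycerol by another route. Lipin-1 is also known to enter the nucleus of liver cells, where it acts as a coactivator with PPARA and PGC-1alpha, and its gene is known to respond to fasting and glucocorticoids.

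Lpin1, which encodes lipin-1, was the only one of the 10 genes that passed. It was down-regulated in soy livers on all 3 of its probes, whereas none of the 18 probes of the other 9 genes passed. Across the array 0.350% of probes passed, 0.208% with higher and 0.141% with lower values in soy, and 0.192% of the 22911 named genes had a probe that passed with lower values. The 3 probes carry the same accession (NM_001130412). In bulk liver, fewer cells of a type and less RNA per cell cannot be told apart.

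The brightest Lpin1 probe (A_65_P10394) read 15.07, 14.41 and 14.27 in the control livers and 12.18, 11.05 and 11.45 in the soy livers. Every soy value lay below every control value, and soy liver 1, the highest of its group, was still far under the lowest control. The change was -3.02 on the log2 scale (SE 0.31, 95% interval -3.75 to -2.30, adjusted p = 0.0170 by limma), which is 8.14-fold lower in soy. The second probe (A_55_P2083481) read 14.07, 13.60 and 13.25 in control and 11.15, 10.05 and 10.24 in soy. It placed the 6 livers in the same order as the brightest probe, and it changed by -3.16 (SE 0.31, 95% interval -3.89 to -2.43, adjusted p = 0.0163 by limma). These probes ranked 10 and 8 among all probes by the size of the fall.

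The third Lpin1 probe (A_55_P2883270) was much dimmer. It read 8.90, 8.65 and 8.75 in control and 8.04, 7.88 and 7.95 in soy, again without overlap. Its change was -0.81 (SE 0.11, 95% interval -1.06 to -0.56, adjusted p = 0.0369 by limma), or 1.76-fold lower. The brightest probe fell further than this one by 2.21 on the log2 scale, with no overlap of the per-array differences between the groups. The exact two-sided permutation test gave p = 0.1, the smallest that 3 against 3 arrays allow (0.14 after Benjamini-Hochberg adjustment over 7 such comparisons). Between the brightest and the second probe the changes differed by 0.14, and the groups overlapped (exact permutation p = 0.3).

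The arrays lay on 3 slides, and the Lpin1 change was seen inside both slides that hold the 2 diets. For the brightest probe it was -2.56 within slide 1 and -2.82 within slide 3, and for the second probe -2.69 and -3.01. With slide as a fixed block, where soy liver 2 sits alone on its slide and adds nothing to the contrast, the 3 probes changed by -2.67, -2.83 and -0.76 (adjusted p = 0.0589, 0.0332 and 0.183 by limma). Leaving out soy liver 2 or soy liver 3 also took the call away from all 3 probes, and the change of the brightest probe was then -2.77 (adjusted p = 0.0700) and -2.97 (adjusted p = 0.0711). The dimmest probe lost its call without any 1 of the 6 livers (adjusted p between 0.0791 and 0.139), and also with a normexp offset of 16 (-0.91, adjusted p = 0.0752) or the replicate number as a block (adjusted p = 0.0755), all by limma.

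**Figure D1:**
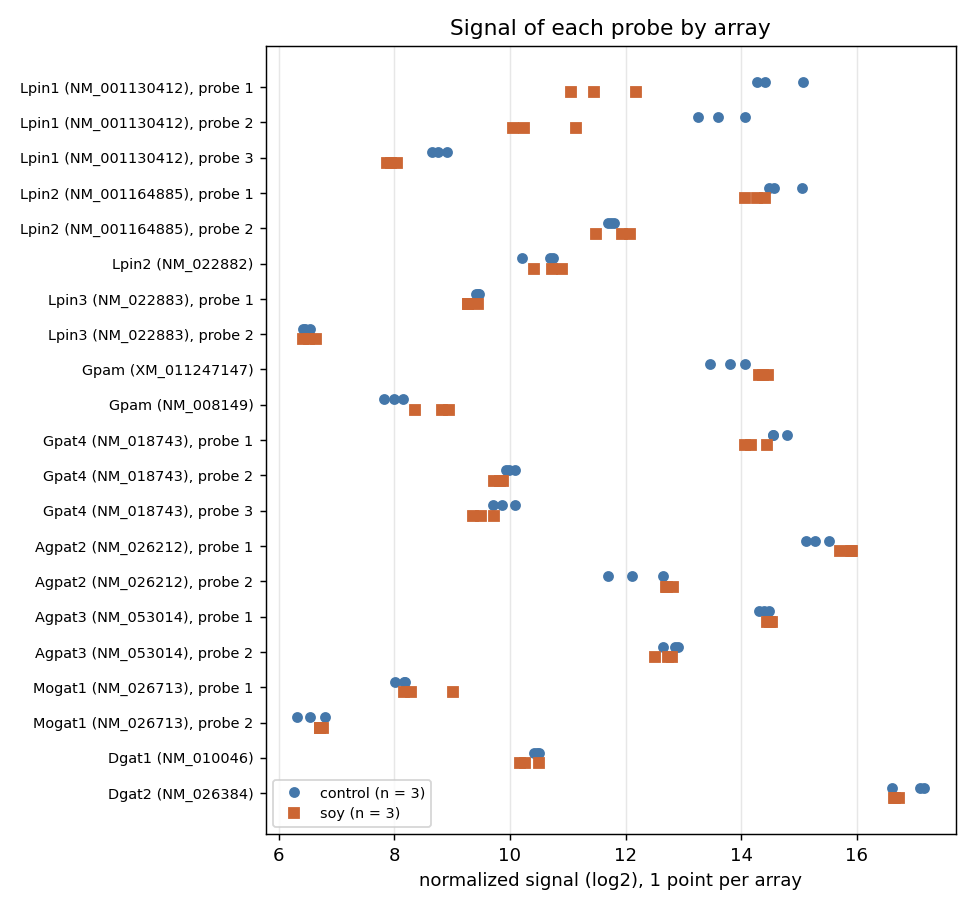
Normalized log2 signal (horizontal axis) of each of the 21 probes (rows, named by gene and accession) on the 3 control arrays (circles) and the 3 soy arrays (squares). The soy squares of Lpin1 sit left of all its control circles on each of its 3 probes, while the Lpin3, Agpat3 and Dgat1 points of both groups overlap.

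The start-site sequences of Lpin1, the gene that passed, and of Lpin2 and Gpam, its paralog and the first enzyme of the pathway, are printed for comparison (RefSeq, GRCm38.p6, from 250 bases before to 50 bases after an annotated start site). Of the 10 genes, 7 had such a window in the table, 11 windows in all. Capitals mark matches on either strand to AGGTCA, the hexamer of nuclear receptor elements, TGTTCT, the hexamer of glucocorticoid receptor elements, the E-box CACGTG or the sterol regulatory element CACNCCAC. The Lpin1 window lies 42.9 kb inside the outer end of the annotated gene, at an internal start site.
Lpin1, chr12:16610917-16611216, minus strand: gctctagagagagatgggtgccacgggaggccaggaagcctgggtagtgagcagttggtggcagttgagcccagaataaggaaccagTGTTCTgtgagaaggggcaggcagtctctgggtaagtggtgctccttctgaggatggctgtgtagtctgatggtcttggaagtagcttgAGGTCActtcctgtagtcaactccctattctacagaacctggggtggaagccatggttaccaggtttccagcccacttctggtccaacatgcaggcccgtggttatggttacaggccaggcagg
Lpin2, chr17:71183282-71183581, plus strand: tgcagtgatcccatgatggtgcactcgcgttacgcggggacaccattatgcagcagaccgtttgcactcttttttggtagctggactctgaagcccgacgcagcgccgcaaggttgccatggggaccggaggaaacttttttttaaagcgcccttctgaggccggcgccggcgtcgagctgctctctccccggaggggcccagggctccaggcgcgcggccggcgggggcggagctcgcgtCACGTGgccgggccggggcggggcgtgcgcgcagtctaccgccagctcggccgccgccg
Gpam, chr19:55127189-55127488, minus strand: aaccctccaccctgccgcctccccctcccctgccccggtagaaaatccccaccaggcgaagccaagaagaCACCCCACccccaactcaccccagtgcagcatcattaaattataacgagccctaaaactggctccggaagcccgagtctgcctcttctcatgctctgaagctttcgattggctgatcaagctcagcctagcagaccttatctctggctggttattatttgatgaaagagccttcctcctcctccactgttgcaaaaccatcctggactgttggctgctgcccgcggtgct

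The Lpin1 window holds 1 AGGTCA, 74 bases before the start site, and 1 TGTTCT, 163 bases before it. AGGTCA was found in 16.3% and TGTTCT in 19.0% of all 32851 windows. The Lpin2 window shown holds 1 CACGTG, found in 7.15% of windows, and that of Gpam 1 CACNCCAC, found in 6.24%. AGGTCA also lies in another window of Gpam, and TGTTCT in another window of Lpin2 and in 1 of Lpin3, so that 2 and 3 of the 11 windows hold these hexamers. A match is a run of letters and not a measured binding site.

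Lpin2 and Lpin3 encode the other two lipins, which carry the same phosphatase activity. The brightest Lpin2 probe (NM_001164885) read 15.05, 14.56 and 14.48 in control and 14.42, 14.27 and 14.06 in soy. The groups did not overlap, and the change of -0.44 (95% interval -0.85 to -0.04, adjusted p = 0.389 by limma) did not pass. The other Lpin2 probes changed by 0.09 (NM_001164885, adjusted p = 0.869) and 0.13 (NM_022882, adjusted p = 0.835), with overlapping groups, so the 3 probes of Lpin2 do not share a direction. The brighter Lpin3 probe read 9.44, 9.47 and 9.42 in control and 9.46, 9.28 and 9.28 in soy, a change of -0.10 (95% interval -0.33 to 0.12, adjusted p = 0.732 by limma). The other Lpin3 probe stayed near background on all 6 arrays and gives no fold.

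Lpin1 fell relative to both paralogs. Within each array, the brightest Lpin1 probe minus the brightest Lpin2 probe was 0.02, -0.15 and -0.21 in control and -2.24, -3.23 and -2.62 in soy. The changes of the pair differed by -2.58 on the log2 scale, and those of Lpin1 and Lpin3 by -2.92. In both cases the groups did not overlap, and the exact two-sided permutation test gave its smallest possible p, 0.1 (0.14 adjusted over the 7 comparisons).

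Gpam encodes the mitochondrial glycerol-phosphate acyltransferase, and it was measured by a probe for each of 2 accessions. The brighter one (XM_011247147) read 13.80, 14.07 and 13.46 in control and 14.38, 14.46 and 14.32 in soy. All soy values were above all control values, and the change was 0.61 (95% interval 0.24 to 0.98, adjusted p = 0.191 by limma). The dimmer one (NM_008149) read 7.99, 8.15 and 7.82 in control and 8.94, 8.36 and 8.82 in soy, also without overlap, a change of 0.72 (95% interval 0.33 to 1.11, adjusted p = 0.154 by limma). Neither Gpam probe passed.

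Gpat4 encodes a glycerol-phosphate acyltransferase of the endoplasmic reticulum. Its brightest probe read 14.79, 14.54 and 14.55 in control and 14.44, 14.17 and 14.07 in soy, a change of -0.40 (95% interval -0.71 to -0.09, adjusted p = 0.303 by limma) without overlap. The other probes of the gene changed by -0.19 and -0.36 (adjusted p = 0.530 and 0.384), so all 3 had lower means in soy and none passed. Gpam minus Gpat4, both by the brightest probe, was -0.99, -0.47 and -1.10 in control and -0.06, 0.29 and 0.25 in soy. The changes of these acyltransferases thus differed by 1.01 on the log2 scale with no overlap (exact permutation p = 0.1, adjusted 0.14).

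Agpat2 and Agpat3 encode acyltransferases that form phosphatidic acid, the substrate of the lipins. The brighter Agpat2 probe read 15.12, 15.28 and 15.52 in control and 15.71, 15.89 and 15.92 in soy, a change of 0.54 (95% interval 0.23 to 0.84, adjusted p = 0.169 by limma). The dimmer one read 11.69, 12.11 and 12.64 in control and 12.70, 12.73 and 12.82 in soy, a change of 0.60 (95% interval 0.09 to 1.11, adjusted p = 0.355 by limma). Soy and control did not overlap on either probe, although control liver 3 lay just under the lowest soy value on the dimmer one. The Agpat3 probes changed by 0.10 (95% interval -0.13 to 0.32) and -0.12 (95% interval -0.41 to 0.16), with overlapping groups. The changes of Agpat2 and Agpat3 on their brightest probes differed by 0.44 without overlap (exact permutation p = 0.1, adjusted 0.14).

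Dgat1 and Dgat2 encode unrelated enzymes for the last acylation, and each had 1 probe. Dgat1 read 10.41, 10.50 and 10.46 in control and 10.50, 10.17 and 10.25 in soy, a change of -0.15 (95% interval -0.41 to 0.11, adjusted p = 0.666 by limma). Dgat2 read 17.17, 17.09 and 16.60 in control and 16.67, 16.73 and 16.64 in soy, a change of -0.27 (95% interval -0.63 to 0.09, adjusted p = 0.568 by limma). The groups overlapped for both genes. The changes of the pair differed by 0.12, also with overlap (exact permutation p = 0.7).

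Mogat1 acylates monoacylglycerol. Its brighter probe read 8.19, 8.01 and 8.16 in control and 9.02, 8.30 and 8.16 in soy, where soy liver 1 stood above the rest. The change was 0.37 (95% interval -0.13 to 0.87, adjusted p = 0.571 by limma), and it was 0.92 within slide 1 and 0.00 within slide 3. The other Mogat1 probe was well above background on 1 control array and on no soy array, and gives no fold.

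**Figure D2:**
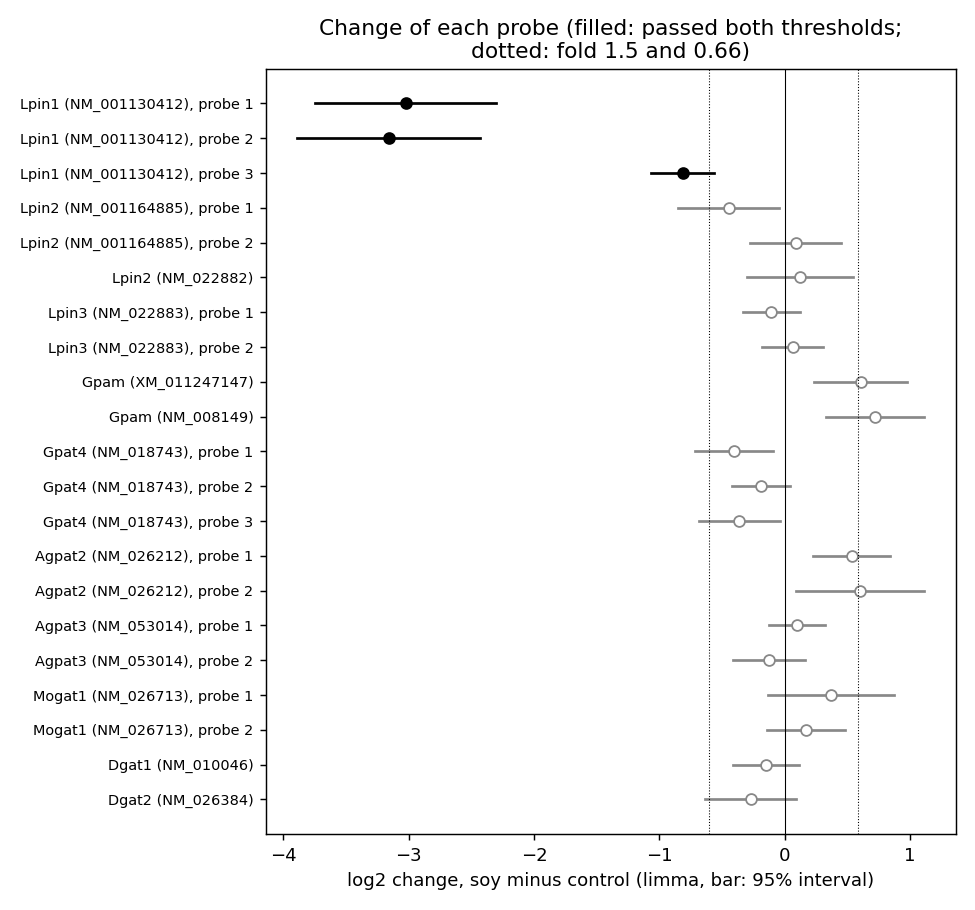
Log2 change, soy minus control (horizontal axis), of each of the 21 probes (rows) from limma, with bars for the 95% interval and dotted lines at fold changes of 1.5 and 0.66. The 3 filled Lpin1 points, at -3.02, -3.16 and -0.81, are those that passed, and the open points lie between -0.44 and 0.72.

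In total, the groups were fully separated on 10 of the 21 probes (47.6%), 6 with lower and 4 with higher values in soy. Over the whole array this held for 18.0% of probes, 10.3% lower and 7.73% higher, and for 23.7% of those measured well above background throughout at least 1 group. The 4 higher ones were those of Gpam and Agpat2. Among the 18 probes that did not pass, adjusted p lay between 0.154 and 0.869, and 7 had an unadjusted p under 0.05, as did 6493 of the 56605 probes on the array. The median change of the 10 genes by their brightest probes was -0.13, beside -0.01 over all named genes.

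The pathway was extended to 13 further genes of acylglycerol synthesis with 24 probes, and none of them passed, beside 0.350% of all probes. By their brightest probes the median change was 0.04, and 5 of the 24 probes had no overlap, all higher in soy, beside 18.0% of all probes without overlap and 7.73% higher. Gpat3, another glycerol-phosphate acyltransferase, read 10.51, 8.44 and 8.44 in control and 11.65, 11.70 and 10.59 in soy. Control liver 1 was set apart from the other control livers and lay just under soy liver 3. The Gpat3 change was 2.18 (SE 0.57, adjusted p = 0.191 by limma), and its dimmer probe was 2.14-fold higher in soy (adjusted p = 0.212). That dimmer probe was marked well above background on 2 of the 3 control arrays, so the size of its change is uncertain. Without control liver 1 the brighter probe passed, with a change of 2.86 (adjusted p = 0.0483 by limma).

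Gpd1, which makes glycerol phosphate from a glycolytic intermediate, read 15.53, 15.27 and 15.78 in control and 16.12, 16.19 and 16.32 in soy. Its groups did not overlap on this probe, with a change of 0.68 (SE 0.15, adjusted p = 0.125 by limma), and they overlapped on its dimmer probe (0.45). Agpat4, another acylglycerol-phosphate acyltransferase, changed by -0.57 (SE 0.20, adjusted p = 0.334 by limma) with overlap, and its values within slide 1 and slide 3 were -0.97 and 0.00. Mogat2, the intestinal relative of Mogat1, was well above background on all control arrays and on no soy array. The groups overlapped, and its change of -0.31 (95% interval -0.60 to -0.01, adjusted p = 0.419 by limma) did not pass. It was -0.38 within slide 1 and 0.01 within slide 3. Taken against the dimmest signals well above background, the ratio of the means of control over soy was 1.2-fold. The interval of the Mogat2 change also holds smaller changes.

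Phosphatidic acid and diacylglycerol also feed phospholipid synthesis. None of the 29 probes of 19 genes of these branches passed, beside 0.350% of all probes. The median change of these genes by brightest probe was 0.15. Pcyt1a, the rate-limiting enzyme of phosphatidylcholine synthesis, changed by 0.53 (SE 0.12, adjusted p = 0.141 by limma), and Chpt1, which joins phosphocholine to diacylglycerol, by 0.72 (SE 0.17, adjusted p = 0.156 by limma). Both were higher on every soy array than on any control array. Etnk2, an ethanolamine kinase, changed by -0.85 (SE 0.25, adjusted p = 0.251 by limma) on its brightest probe with overlap, and by -1.01 (adjusted p = 0.186) without overlap on the other. Over these branches and the further acylglycerol genes, 18 of 53 probes had an unadjusted p under 0.05, where 6493 of all 56605 probes did.

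Of the genes that act on or with lipins, 10 were listed, and none of their 17 probes passed or separated the groups. Over the whole array 0.350% of probes passed and 18.0% separated the groups. The list holds the lipin phosphatase subunits Ctdnep1 and Cnep1r1, the kinase Mtor and the transcription factors and coactivators that work with lipin-1 or its relatives. Srebf1, which encodes the lipogenic factor SREBP-1, changed by 0.68 (SE 0.34, adjusted p = 0.512 by limma). Ppargc1b, a coactivator related to PGC-1alpha, changed by -0.59 (SE 0.39, adjusted p = 0.622) and was -0.93 within slide 1 but 0.16 within slide 3. Srebf2 changed by 0.33 (SE 0.14, adjusted p = 0.433).

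**Figure D3:**
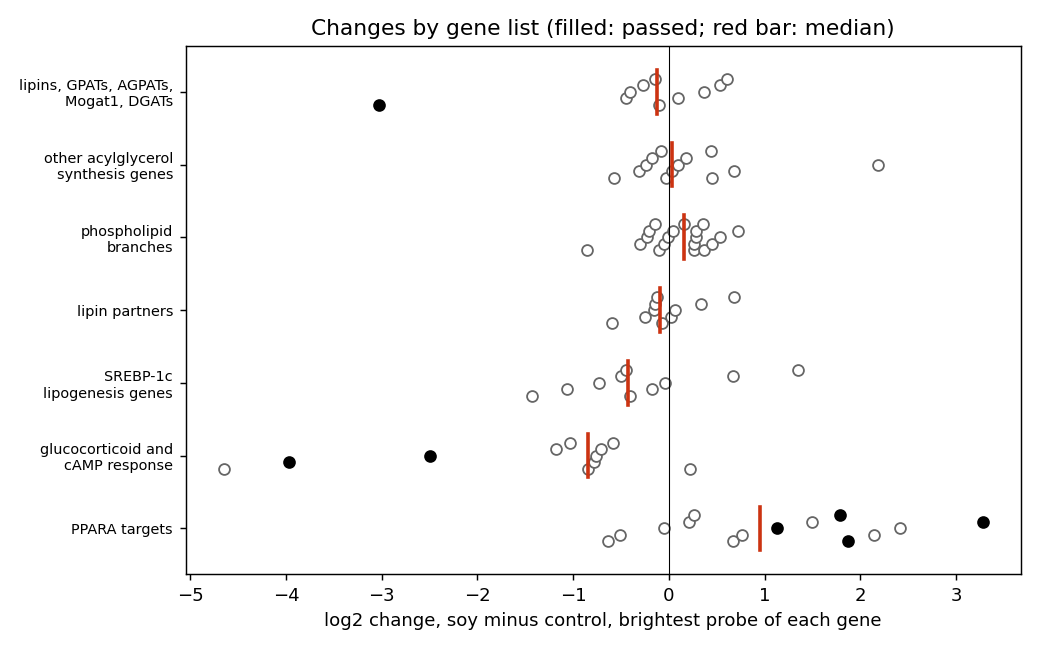
Log2 change, soy minus control (horizontal axis), of the brightest probe of each gene in 7 gene lists (rows), where filled points passed and the red bar is the median. Lpin1, at -3.02, is alone at the left of its row, and the rows of the further acylglycerol genes, the phospholipid branches and the lipin partners hold open points only.

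The genes whose values over the 6 arrays were most like those of Lpin1 were searched among 14982 genes outside the lists with a brightest probe well above background throughout a group, by the root mean square difference between mean-centred log2 values of brightest probes. The 5 closest were Nrg4 (0.294), Pfkfb3 (0.329), Adgrf1 (0.365), Gm12718 (0.448) and Ppp1r3g (0.478). Each was lower on every soy array than on any control array, which follows from the way they were found. Nrg4, Pfkfb3 and Adgrf1 passed, while Gm12718 (adjusted p = 0.0815) and Ppp1r3g (adjusted p = 0.0997) did not, all by limma. Gm12718 was well above background on 2 of the 3 soy arrays. Nrg4 encodes a secreted ligand of ERBB receptors, Pfkfb3 an enzyme that makes a stimulator of glycolysis, and Ppp1r3g a glycogen-targeting subunit of a phosphatase. Pfkfb3 read 12.50, 12.34 and 12.39 in control and 9.73, 9.20 and 9.80 in soy, and Adgrf1 10.17, 10.47 and 10.01 in control and 8.05, 7.32 and 7.42 in soy. The similarity is a description over 6 arrays of 2 groups and says nothing of shared control.

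**Figure D4:**
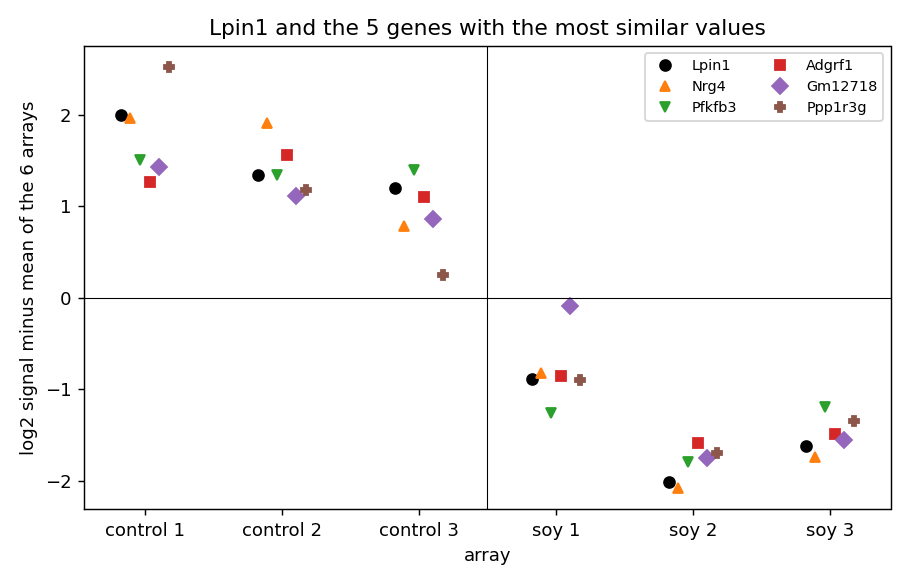
Log2 signal minus the mean of the 6 arrays (vertical axis) for Lpin1 and the 5 genes with the most similar values, by array (horizontal axis), control arrays left and soy arrays right of the vertical line. All points are above 0 in control and below 0 in soy, and soy 1 is the highest soy array for Lpin1.

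Marker genes gave no call between the diets. The 8 marker lists covered hepatocytes, adipocytes, skeletal muscle, small intestine, Kupffer cells, endothelial cells, stellate cells and cholangiocytes. None of the 53 probes of their 40 genes passed, beside 0.350% of all probes, and the smallest adjusted p was 0.287 by limma. An unadjusted p under 0.05 was found on 2 of the 53, and on 6493 of all 56605 probes. With so small a share passing, 53 probes without a call say little of cell composition, which was not tested. Lipin-1 is abundant in adipocytes and muscle. The adipocyte genes Adipoq and Plin1 and the muscle genes Ckm and Myh4 were near background throughout, with no array marked well above it. Lep, at 10.36 to 10.87, and the brightest probes of the muscle genes Tnnt3 and Mylpf were well above background on all 6 arrays. The brighter probe of the adipocyte gene Cfd read 6.28, 6.26 and 7.10 in control and 8.20, 6.33 and 6.34 in soy, with soy liver 1 apart from the rest, and in each group 1 array showed it well above background. The muscle gene Acta1 read 7.02, 7.67 and 6.96 in control, where all 3 arrays were marked well above background, and 6.998, 6.91 and 6.84 in soy, where none was. Its groups overlapped, and the change of -0.30 did not pass (adjusted p = 0.601 by limma). The fitted ratio of control over soy was 1.23-fold, and the limma interval of the log2 change, -0.74 to 0.14, included no change. The dimmer Mylpf probe was likewise marked on 3 control arrays and no soy array (-0.09, adjusted p = 0.839), and the brighter probe of the adipocyte gene Retn on 2 and none (-0.14, adjusted p = 0.835). The part of these genes in the Lpin1 result was not tested. The summed linear signal of the 5 adipocyte genes was 1780, 2050 and 2320 in control and 1910, 1950 and 1700 in soy. That of the 5 muscle genes was 888, 943 and 918 in control and 888, 896 and 820 in soy. Lep gave the largest part of the adipocyte sum and Tnnt3 of the muscle sum, which compares probe signals and not amounts of RNA.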

How the data were processed

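Liver mRNA of 3 control and 3 soy mice was measured on 1 single-colour array per mouse. The authors deposited the spot intensity output of Agilent Feature Extraction 11.5.1.1, per the file headers, in which the median intensity of spot and background is not scaled between arrays and the processed intensity has the background subtracted. The marks for spots well above background, saturated or outlying come from the same output. A log2 table with shared quantiles was deposited too. Its values differ by 0.0705 at most from those computed here when outlier spots are kept.

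Median intensities were corrected by normexp (offset 50), control spots removed, arrays quantile normalized and log2 transformed, outlier spots dropped and repeated spots averaged. Each probe was fitted for soy against control with limma 3.58.1 in R 4.3.3, with Benjamini-Hochberg adjustment over 56605 probes, and tested on simulated data. Probe pairs were compared by exact permutation in Python 3.11.15 with scipy 1.17.1. Gene names came from RefSeq accessions (GRCm38.p6), which named 32994 probes. No spot was saturated.

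Every probe of the 10 genes is given. Of the other lists, genes that passed (at most 5) or the 3 with the largest change on the brightest probe are named, with the 5 genes most like Lpin1 and the cell type markers. Genes named beyond this rule were chosen after their values were seen. One gene that the rule names is not reported here. The members, lists and thresholds were chosen with earlier results of these data known. The alternatives were the background correction, signal, normalization, dim-probe filter, outliers, moderation, blocks, deposited values and call rule, and each array left out in turn. The array number, 3 per group, limits precision.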

Additional observations from a re-analysis of the deposited data

How the results depend on the processing

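Across 376 values of the 21 probes under the alternatives, 359 kept their direction and their side of the threshold, 14 lost the call, 1 gained it and 2 turned sign. The processed signal was scaled to the 75th percentile, so that signal and scaling changed together, and their effects were not separated. The dimmer Gpam probe gained the call there (0.99, adjusted p = 0.0227 by limma), and was at 0.81 with the percentile shift of the median signal. The 2 that turned are Lpin2 probes with small changes. With 1 array left out, A_55_P2729608 ranged from -0.029 (without soy liver 2) to 0.261 and A_51_P370438 from -0.042 (without control liver 1) to 0.258, and the difference of Dgat1 and Dgat2 from -0.01 (without control liver 1) to 0.292. The Lpin1 change stayed between -3.34 and -2.67 on the brightest probe, with adjusted p between 0.00177 and 0.0711. The dimmest Lpin1 probe passed in none of the fits without 1 array (adjusted p 0.0791 to 0.139).

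The 198 probes that passed became 77 with an offset of 16, 13138 with the percentile-scaled processed signal (11924 higher and 1214 lower in soy), 299 with a 75th-percentile shift (202 higher and 97 lower, against 118 and 80), 497 with only probes well above background and 25 with slide as a fixed block, and 26 to 208 with 1 array left out. The share of higher calls was larger with the percentile shift alone and with the percentile-scaled processed signal. In the latter, signal and scaling changed together. The percentile-scaled processed signal and the percentile shift alone moved the median change of all probes to 0.13 each, from -0.01. The cause was not tested. The 3 probes of the 10 genes that passed became 1 with slide as a fixed block and 0 to 2 with 1 array left out. Of the further pathway probes, where 0 passed, 4 did with the percentile-scaled processed signal (Pcyt1b, Gpd1, Chpt1 and Gk, all higher in soy) and 0 to 1 with 1 array left out. Pcyt1b was well above background on no array, and its change was -0.15 on the median signal and 1.01 on the percentile-scaled processed signal.

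Same-numbered livers deviated from their group means with correlations of 0.116, -0.0574 and 0.106, so the numbers were not taken to pair the mice. With the number as a replicate block, 78 probes passed in all and 2 of the 10 genes' probes, both of Lpin1. With 3 arrays per group, small changes could not be resolved, as the width of the intervals shows.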

Other observations

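Lpin1 is known to be induced by glucocorticoids and cAMP, and 11 other genes of that response were listed. Of their 14 probes 2 passed, both lower in soy, beside 0.141% of all probes, and 9 of the 11 genes did not pass. Lower means in soy were found on 13 of the 14 probes and on 29681 of all 56605, and the median change by brightest probe was -0.84, beside -0.01 over all named genes. Sgk1, a kinase gene, was the exception, at 0.22 (adjusted p = 0.762 by limma). Igfbp1, which encodes an insulin-suppressed binding protein of IGF, read 15.14, 14.70 and 14.29 in control and 11.74, 12.17 and 12.73 in soy, which is 5.65-fold lower in soy (adjusted p = 0.0242 by limma). On the log2 scale its change was -3.18 within slide 1 and -1.56 within slide 3. Mt1, a metallothionein, changed by -3.97 on its brightest probe (adjusted p = 0.0369 by limma) and by -1.82 on the other, which did not pass. That other Mt1 probe was marked well above background on 2 of the 3 soy arrays, so the size of its change is uncertain.

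Lipin-1 is known as a coactivator with PPARA. The listed PPARA targets had higher means in soy on 17 of 20 probes, where 26924 of all 56605 did. Their median change was 0.95 by brightest probe. Of the 14 genes, 4 passed, all higher, namely Cyp4a14 (3.28), Pdk4 (1.87), Acot1 (1.78) and Acaa1b (1.13), beside 0.340% of all named genes. Cyp4a14 was near background in control, at 6.93, 6.72 and 7.27, with 2 of the 3 arrays marked well above it, so the size of its change is uncertain. Angptl4, at -0.64 (adjusted p = 0.0681 by limma), and Cpt1a, at -0.51 (adjusted p = 0.257 by limma), had no overlap between the groups, with soy lower, and did not pass. None of the 19 probes of 10 SREBP-1c lipogenesis genes passed, beside 0.350% of all probes, and the median was -0.43. The groups did not overlap on 8 of these probes, 4 lower and 4 higher in soy, beside 10.3% and 7.73% of all probes. Both Me1 probes were among the higher ones, at 0.67 (adjusted p = 0.153) and 0.48 (adjusted p = 0.27), both by limma. Elovl6 changed by -1.06 (adjusted p = 0.195) and Thrsp by -1.43 (adjusted p = 0.306), both by limma, the latter without control liver 1, whose spot was marked as an outlier. None of the 25 probes of 12 clock genes passed, beside 0.350% of all probes, with a median of -0.58. Dbp changed by -2.59 (not passed), Ciart by -2.39 (adjusted p = 0.218) and the brightest Arntl probe by 1.79 (adjusted p = 0.210), all by limma. This Ciart probe was marked well above background on 2 of the 3 soy arrays, so the size of its change is uncertain. The other Arntl probes changed by -0.004 and 0.72, so the 3 do not share a size. Soy liver 3 was the lowest for Dbp (10.77) and the highest on the brightest Arntl probe (10.71).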
